A study of Mus musculus with 10 samples.

Results

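Hormone-sensing luminal genes are the genes by which one class of mammary luminal cell perceives ovarian and pituitary hormones and passes the signal on. The 9 genes described here are Esr1, Pgr, Prlr, Foxa1, Gata3, Greb1, Cited1, Wnt4 and Tnfsf11. They were chosen by name for these known roles, and all 9 were found among the 16290 genes of the deposited table. The 10 RNA libraries came from mammary epithelium of FVB mice, isolated by enzymatic digestion of glands 3 and 4: 2 from NIC, 3 each from NIC-Prmt1 and NIC-Carm1, and 2 from NIC-Prmt6. All 4 groups carry the genotype that the labels call NIC without spelling it out, and each group but NIC adds overexpression of the protein arginine methyltransferase in its name. The study compared gene expression with and without this overexpression in models of mammary tumour formation. The labels give neither the promoter that drives a transgene, nor the age of the mice, nor how many animals contributed to a library. The p-values below therefore measure only the spread between these libraries, which may be partly technical.

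In the mouse mammary gland, the estrogen receptor ESR1 and the progesterone receptor PGR are transcription factors switched on by their steroid ligands, and Pgr is itself a classic estrogen target. FOXA1 opens chromatin for ESR1, and GATA3 is needed to form and maintain luminal cells. The receptor-positive cells rarely divide themselves. They release WNT4 and RANKL (the product of Tnfsf11), which act on neighbouring basal and progenitor cells. Prolactin acts through its receptor PRLR and the kinase JAK2. PRMT1 and CARM1 are known as coactivators of steroid receptors.

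Recovered reads ranged from 21589274 to 30260921 per library, and every one of the 9 genes had reads in all 10 libraries. Markers of the labelled cell type were present in every library, though not alone: Krt8 and Krt18, keratins of luminal cells, together had values between 66785 and 178391. NIC-Carm1 replicate 2 hardly differed from replicate 3, and NIC-Prmt6 replicate 1 hardly differed from replicate 2. The chi-square of their reads per degree of freedom was 2.69 and 2.44, against 27.99 to 104.6 for all other same-group pairs. These pairs make the spread of their groups look small, and calls that end when each pair is averaged to 1 library are named below. NIC-Carm1 replicate 1 stood apart from the other NIC-Carm1 libraries, with summed milk genes at 33377 CPM (recovered reads relative to the total of their library) where the other 9 libraries had 263.5 to 2144. Markers of other cell types differed between the groups. The 10 fibroblast genes summed to 3357 to 4137 CPM in NIC, 6002 to 7842 CPM in NIC-Prmt1, 4033 to 4367 CPM in NIC-Carm1 and 13328 to 13337 CPM in NIC-Prmt6. The 8 endothelial genes summed to 987 to 1178, 1765 to 2477, 1022 to 1175 and 2434 to 2453 CPM in the same order. The fibroblast sum exceeded that of the 12 luminal epithelium genes in NIC-Prmt6 (luminal sum 6486 to 6519 CPM) and in NIC-Prmt1 replicate 1 (luminal sum 7206 CPM). The 12 basal and myoepithelial genes were at 4559 to 7720 CPM in NIC-Prmt1 and at 2254 to 3098 CPM in the other groups, and no group but NIC-Prmt1 had a skin keratinocyte sum above 36.6 CPM (20.6 to 1007 CPM in NIC-Prmt1). The 8 luminal progenitor genes summed to 6565 to 7111 CPM in NIC, 3659 to 5115 CPM in NIC-Prmt1, 6308 to 9421 CPM in NIC-Carm1 and 2803 to 2810 CPM in NIC-Prmt6. The 7 macrophage genes were at 120.7 to 238.4, 178.4 to 362.4, 336.4 to 482.2 and 566.4 to 581.6 CPM in the same order, and the 6 pericyte genes at 355.9 to 382, 815.1 to 1270.3, 522.2 to 707.6 and 1111 to 1151 CPM. The macrophage and pericyte sums of NIC-Carm1 thus lay above those of NIC too. No gene of the fibroblast, endothelial, basal, luminal progenitor, macrophage and pericyte lists was at 0 in any library, and their part in the results below was not tested. In bulk RNA, a change in the number of cells of a type and a change in RNA per cell cannot be told apart.

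The 9 genes lie on 8 chromosomes, and RefSeq places 15 start sites for them on GRCm38.p6, the build (mm10) of the deposited table. The 250 bases upstream of a start site are printed for Pgr and Greb1, which are known estrogen targets, and for Prlr and Foxa1, whose levels ran closest together. Letters in capitals are matches, on either strand, to 1 arm of the estrogen response element (AGGTCA) or to a forkhead motif (TGTTTAC or TGTTTGC).
Pgr, chr9:8899583-8899832, plus strand: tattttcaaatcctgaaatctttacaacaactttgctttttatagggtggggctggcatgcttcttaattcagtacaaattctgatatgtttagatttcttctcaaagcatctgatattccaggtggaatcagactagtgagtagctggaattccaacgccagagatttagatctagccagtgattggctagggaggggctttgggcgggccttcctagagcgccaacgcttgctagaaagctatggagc
Greb1, chr12:16800887-16801136, minus strand: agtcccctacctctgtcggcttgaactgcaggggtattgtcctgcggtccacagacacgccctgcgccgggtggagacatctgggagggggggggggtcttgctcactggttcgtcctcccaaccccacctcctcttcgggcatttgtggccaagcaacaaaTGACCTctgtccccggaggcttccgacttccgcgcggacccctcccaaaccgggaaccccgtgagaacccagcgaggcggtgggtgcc
Prlr, chr15:10223656-10223905, plus strand: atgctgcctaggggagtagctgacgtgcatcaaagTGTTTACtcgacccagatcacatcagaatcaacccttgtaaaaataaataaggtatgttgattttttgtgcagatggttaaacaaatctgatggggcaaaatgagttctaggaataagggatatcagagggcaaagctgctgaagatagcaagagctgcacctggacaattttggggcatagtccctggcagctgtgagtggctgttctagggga
Foxa1, chr12:57546112-57546361, minus strand: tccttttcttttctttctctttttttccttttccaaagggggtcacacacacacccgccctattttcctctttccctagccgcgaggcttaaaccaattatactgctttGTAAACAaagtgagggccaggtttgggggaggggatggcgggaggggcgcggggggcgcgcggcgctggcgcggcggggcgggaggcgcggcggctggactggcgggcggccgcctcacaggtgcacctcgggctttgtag
The Greb1 window, at one of 2 Greb1 start sites, held the estrogen receptor arm at position -88 from the start site, read on the opposite strand, and the window at the other start site (chr12:16757190-16757489) held none of the motifs searched. The Prlr window, at one of 3 Prlr start sites, held TGTTTAC at position -215, and the Foxa1 window held its reverse complement at position -141. The windows from 250 bases before to 50 after each start site were searched for these motifs and for the GATA motifs AGATAA and TGATAA. The arm AGGTCA was in 2 of the 15 windows of the 9 genes and in 16.3% of 32851 mouse windows of the same length, and a forkhead motif was in 3 of 15 and in 8.48% of all. None of the 15 held a GATA motif, which 18.6% of all windows hold, or the full estrogen response element (GGTCA and TGACC with any 3 bases between them, which can overlap the single arm), which 0.07% hold. A match is a string of letters and says nothing of binding, and an empty window says nothing of a factor acting elsewhere.

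Pgr was the member with the clearest difference between groups, high in NIC-Prmt1 and NIC-Prmt6 and low in NIC and NIC-Carm1. Pgr (chromosome 9, 8899833 to 8968611, plus strand) had a normalised read count, the reads divided by the library's size factor, of 1357 and 1364 in NIC. In NIC-Prmt1 it was 4718, 4051 and 3520 in replicates 1 to 3, in NIC-Carm1 1829, 1248 and 1241, and in NIC-Prmt6 3766 and 3706. Every library of NIC-Prmt1 and NIC-Prmt6 lay above every library of the other groups, and NIC-Carm1 overlapped NIC. Against NIC, Pgr rose 2.99-fold in NIC-Prmt1 (log2 fold change 1.58 ± 0.17 SE, limma adjusted p = 0.000548) and 2.74-fold in NIC-Prmt6 (1.46 ± 0.19, adjusted p = 0.000536). It was not shown to differ in NIC-Carm1, where the log2 difference was 0.06 with a 95% interval from -0.33 to 0.44. NIC-Prmt1 lay 1.52 ± 0.15 above NIC-Carm1 in Pgr (limma adjusted p = 0.000941), and NIC-Prmt6 lay 1.40 ± 0.17 above it (adjusted p = 0.000361). These 4 Pgr calls held in all 22 alternative fits. Fibroblast and endothelial sums were also above those of NIC and NIC-Carm1 in every NIC-Prmt1 and NIC-Prmt6 library, and their part was not tested.

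Esr1 was highest in NIC-Prmt6 and varied within NIC and NIC-Carm1. Esr1 (chromosome 10, 4611593 to 5005614, plus strand) was at 1118 and 634.5 in NIC, at 1528, 1518 and 1327 in NIC-Prmt1, at 629.6, 1273 and 1364.5 in NIC-Carm1 and at 1864 and 1900 in NIC-Prmt6. NIC replicate 2 and NIC-Carm1 replicate 1 were the lowest libraries, and both NIC-Prmt6 libraries lay above all others. Esr1 rose in NIC-Prmt6 against NIC by 1.16 ± 0.34 on the log2 scale (limma adjusted p = 0.0249). That call ended on averaging the near-identical libraries (adjusted p = 0.114), without NIC replicate 2 (0.189) and without either NIC-Prmt6 library (0.0989 and 0.106). In NIC-Prmt1 all 3 libraries lay above both NIC libraries, with a log2 difference of 0.79 ± 0.31 that did not pass (adjusted p = 0.0835). It passed without NIC-Carm1 replicate 1 (adjusted p = 0.0135) and with DESeq2 (0.0481). NIC-Prmt6 lay 0.87 ± 0.31 above NIC-Carm1 (adjusted p = 0.051), which passed without either NIC library (0.0394 and 0.0397) and without NIC-Carm1 replicate 2 (0.0498) or 3 (0.0354). The same difference also passed with DESeq2 (0.0252), with voom (0.00121) and with a filter on values of at least 50 (0.0487), in all in 7 of 22 alternatives. In turn NIC-Carm1 lay 0.29 ± 0.31 above NIC (adjusted p = 0.567). Stromal cells of the gland are also known to make Esr1, and NIC-Prmt6 had the highest fibroblast sum as well. The part of those cells was not tested.

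Prlr, the receptor of the lactation hormone prolactin, was the most abundant of the 9 genes by reads. Prlr (chromosome 15, 10177238 to 10349180, plus strand) was at 8461 and 6269 in NIC, at 18497, 17463 and 14812 in NIC-Prmt1, at 7460, 14024 and 13918 in NIC-Carm1 and at 12729 and 12604 in NIC-Prmt6. All NIC-Prmt1 libraries were above all others, and NIC-Carm1 replicate 1 lay within the NIC range. Prlr rose 2.31-fold in NIC-Prmt1 against NIC (1.21 ± 0.25, limma adjusted p = 0.00763), a call lost without NIC replicate 2 (adjusted p = 0.0699). It rose 1.74-fold in NIC-Prmt6 (0.80 ± 0.28, adjusted p = 0.0463). The NIC-Prmt6 call is close to the threshold and was lost in 11 of 22 alternatives, among them averaging (adjusted p = 0.166), edgeR (0.0505), and each fit that left out a NIC, NIC-Prmt1 or NIC-Prmt6 library (0.0501 to 0.249). In NIC-Carm1 the log2 difference of 0.64 ± 0.25 did not pass (adjusted p = 0.116). It was 0.94 and passed without NIC-Carm1 replicate 1 (adjusted p = 0.00395). It also passed with DESeq2 (0.68, adjusted p = 0.0336) and voom (0.91, adjusted p = 0.00173), in all in 3 of 22 alternatives.

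**Figure D1:**
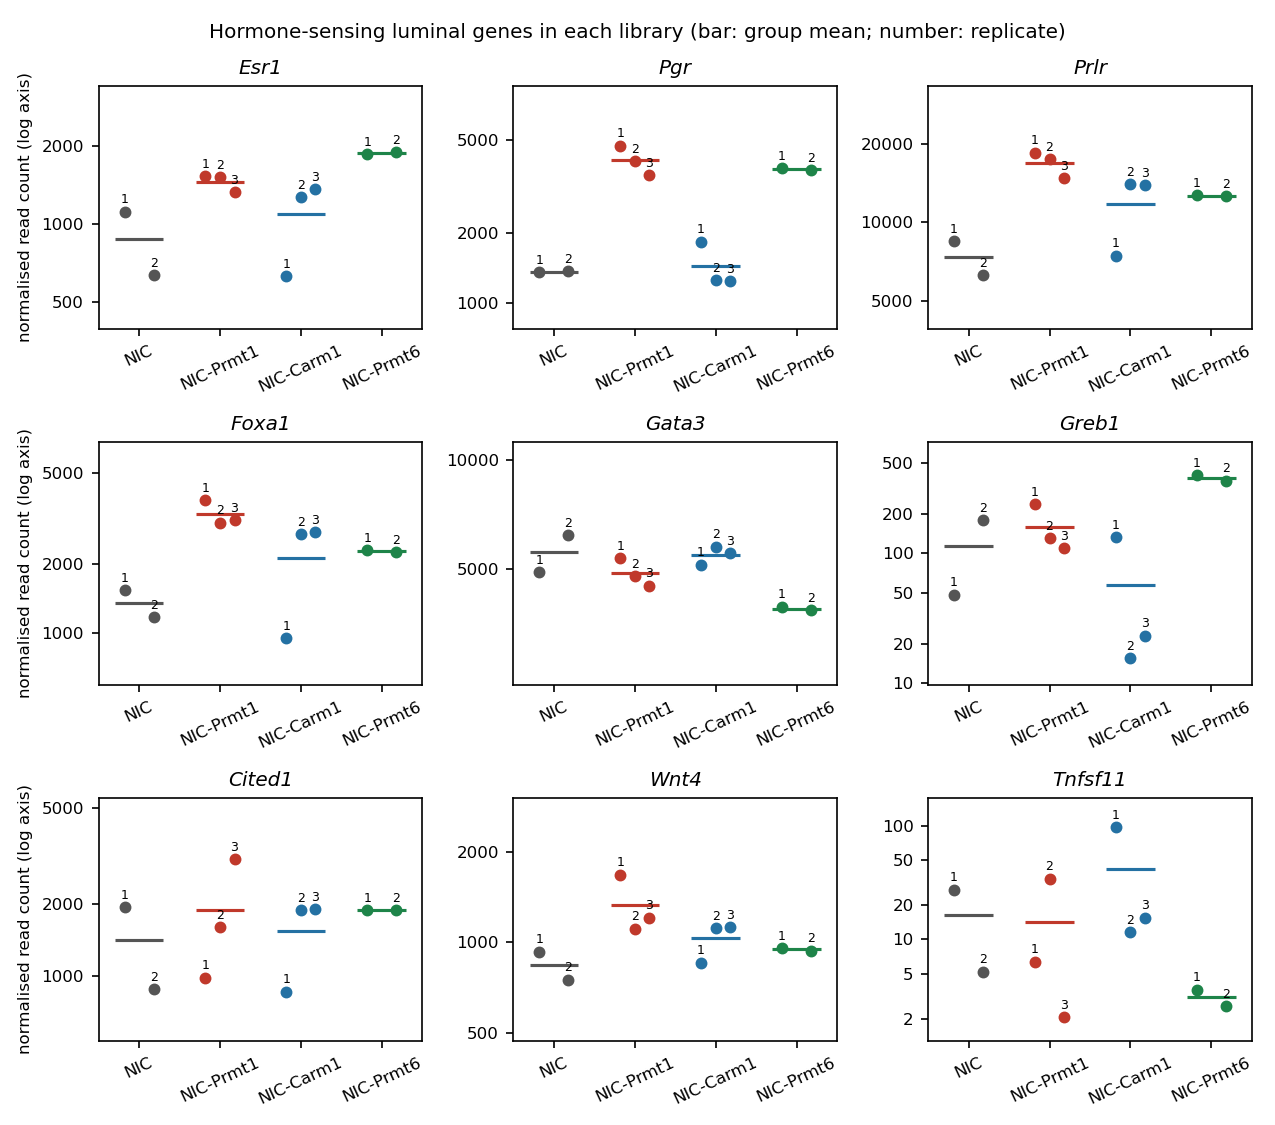
Normalised read counts (vertical axis, log scale) of the 9 genes in each library, by group (horizontal axis), with the replicate number beside each point and a bar at the group mean. Pgr lies between 3520 and 4718 in NIC-Prmt1 and NIC-Prmt6 and between 1241 and 1829 in NIC and NIC-Carm1, while Cited1 and Tnfsf11 overlap widely between most groups.

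Among the transcription factors of the set, Foxa1 was higher in NIC-Prmt1 than in NIC, and Gata3 was lower in NIC-Prmt6. Foxa1 (chromosome 12, 57540628 to 57546916, minus strand) was at 1542 and 1174 in NIC, at 3803, 3041 and 3124 in NIC-Prmt1, at 952.9, 2708 and 2759 in NIC-Carm1 and at 2299 and 2255 in NIC-Prmt6. NIC-Carm1 replicate 1 had the lowest value of all libraries while replicates 2 and 3 lay above NIC-Prmt6. Foxa1 rose 2.46-fold in NIC-Prmt1 against NIC (1.30 ± 0.38, limma adjusted p = 0.0294). The call was lost without NIC replicate 1 (adjusted p = 0.0724) or 2 (0.167) and without NIC-Prmt1 replicate 1 (0.0778) or 3 (0.0584). Foxa1 was not called in NIC-Prmt6 (0.76 ± 0.42, adjusted p = 0.179) or in NIC-Carm1 (0.52 ± 0.38, adjusted p = 0.388). Without NIC-Carm1 replicate 1, both passed, at 0.76 (adjusted p = 0.00324) and 1.02 (adjusted p = 0.00217). That library enters the NIC-Prmt6 comparison only through the spread estimated over all groups. With voom both differences passed too (adjusted p = 0.0224 and 0.0123), and that of NIC-Prmt6 passed in limma with the 2 groups fitted alone (0.0121).

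Gata3 (chromosome 2, 9857078 to 9890034, minus strand) was the most even member. It was at 4900.5 and 6207 in NIC, at 5352, 4787 and 4497.5 in NIC-Prmt1, at 5143, 5762 and 5530 in NIC-Carm1 and at 3940 and 3846 in NIC-Prmt6. Its highest library was 1.61 times its lowest, and only the NIC-Prmt6 libraries lay apart from the rest, at the bottom. Gata3 fell by 0.50 ± 0.13 on the log2 scale in NIC-Prmt6 against NIC (limma adjusted p = 0.0134) and by 0.49 ± 0.12 against NIC-Carm1 (adjusted p = 0.00947). Both calls ended on averaging (adjusted p = 0.116 and 0.150) and without NIC-Prmt6 replicate 1 (0.0687 and 0.0633) or 2 (0.0828 and 0.0748), and that against NIC also without NIC replicate 2 (0.104). The luminal epithelial list was at 9718 to 11855 CPM in NIC and 6486 to 6519 CPM in NIC-Prmt6, so the luminal sum was lower there as well. In NIC-Carm1 the same list was at 6221 to 7455 CPM, and Gata3 differed from NIC by -0.01 (95% interval -0.27 to 0.25). NIC-Carm1 and NIC-Prmt6 also differed in their fibroblast and luminal progenitor sums. The part of the luminal sum was not tested in either group.

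Cited1, a coactivator that binds the estrogen receptor, varied more within groups than between them. Cited1 (chromosome X, 102247381 to 102252181, minus strand) was at 1937 and 885.4 in NIC, at 986.6, 1601 and 3059 in NIC-Prmt1, at 862.8, 1886 and 1894 in NIC-Carm1 and at 1884 and 1886 in NIC-Prmt6. Within NIC-Prmt1 the highest library was 3.10 times the lowest, against 1.34 times between the highest and lowest group means. No comparison of Cited1 passed (limma adjusted p from 0.474 to 0.869), and none passed in any alternative fit.

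Greb1, a cofactor of the estrogen receptor and one of its best known targets, was low and differed widely between libraries. Greb1 (chromosome 12, 16670615 to 16800886, minus strand) was at 48.2 and 180.7 in NIC, at 238.7, 130.5 and 109.5 in NIC-Prmt1, at 132.9, 15.6 and 23.3 in NIC-Carm1 and at 400.2 and 362.1 in NIC-Prmt6. The NIC-Prmt6 libraries lay above all others, and NIC-Carm1 replicates 2 and 3, which had 19 and 24 reads, lay below all others. Greb1 was higher in NIC-Prmt6 than in NIC-Carm1 by 3.34 ± 0.81 on the log2 scale (limma adjusted p = 0.01). The call ended on averaging (2.87, adjusted p = 0.133) and without NIC-Prmt6 replicate 1 (0.0695) or 2 (0.0600). Against NIC, the log2 difference was 2.01 ± 0.89 in NIC-Prmt6 (adjusted p = 0.102), -1.32 ± 0.81 in NIC-Carm1 (adjusted p = 0.298) and 0.68 ± 0.81 in NIC-Prmt1 (adjusted p = 0.549), and none passed. Without NIC-Carm1 replicate 1, the differences of NIC-Prmt6 and NIC-Carm1 from NIC passed, at 2.01 (adjusted p = 0.0181) and -2.23 (adjusted p = 0.0226). NIC-Prmt1 lay 2 ± 0.73 above NIC-Carm1, which did not pass in the main fit (adjusted p = 0.0665). It passed without NIC-Carm1 replicate 1 (2.92, adjusted p = 0.00573) and with voom (2.65, adjusted p = 0.00087). With voom, the differences of NIC-Prmt6 and NIC-Carm1 from NIC passed too, at 2.14 and -2.05 (adjusted p = 0.00133 and 0.0152). An antisense gene shares 7.68% of the Greb1 exon length, and since the counting strand is not given in the sources used here, its reads cannot be told apart from those of Greb1.

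Wnt4 and Tnfsf11 encode secreted signals of these cells, and progesterone acting through PGR is known to induce both. Of the pair, Wnt4 rose in NIC-Prmt1, and Tnfsf11 passed in no comparison. Wnt4 (chromosome 4, 137277489 to 137299726, plus strand) was at 931.7 and 751.5 in NIC, at 1683, 1111 and 1208 in NIC-Prmt1, at 856.0, 1117 and 1124 in NIC-Carm1 and at 956.3 and 937.5 in NIC-Prmt6. It rose 1.57-fold in NIC-Prmt1 against NIC (0.65 ± 0.19, limma adjusted p = 0.0275). The call ended on averaging (adjusted p = 0.0654), with the 2 groups fitted alone (0.0600), without NIC replicate 2 (0.182) and without NIC-Prmt1 replicate 1 (0.0595). In NIC-Prmt6, where Pgr rose 2.74-fold, the Wnt4 difference was 0.18 (95% interval -0.28 to 0.63, adjusted p = 0.528), and in NIC-Carm1 it was 0.29 ± 0.19 (adjusted p = 0.319).

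Tnfsf11 was near the limit of counting in several libraries. Tnfsf11 (chromosome 14, 78277445 to 78308043, minus strand) was at 27.4 and 5.20 in NIC, at 6.37, 34.2 and 2.07 in NIC-Prmt1, at 96.9, 11.5 and 15.5 in NIC-Carm1 and at 3.62 and 2.58 in NIC-Prmt6. NIC-Carm1 replicate 1 held 86 reads, and the NIC-Prmt6 libraries held 4 and 3. No comparison passed (limma adjusted p from 0.0809 to 0.757), and the interval of the log2 difference in NIC-Prmt1 against NIC ran from -3.06 to 2.02. The lowest of these was for NIC-Prmt6 against NIC-Carm1, at -2.74 ± 1.14, which passed with DESeq2 (adjusted p = 0.00938), with voom (0.00912) and without NIC-Prmt1 replicate 2 (0.0475). Pooled over libraries, NIC-Prmt6 held 7 reads and NIC 33, a ratio of 0.171 with an exact 95% binomial interval from 0.0638 to 0.393 that covers counting error only, not the difference between NIC libraries. T cells also make Tnfsf11. The 8 T cell genes measured summed to 59.6 CPM in NIC replicate 1 and 40.3 CPM in NIC-Prmt1 replicate 2, which were the highest Tnfsf11 libraries of their groups, but to only 26.0 CPM in NIC-Carm1 replicate 1. No T cell gene of the list was at 0 in any library, and the part of T cells was not tested.

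The members' calls are set here beside those of all genes tested. In NIC-Prmt1 against NIC, 4 of 9 rose (Pgr, Prlr, Foxa1, Wnt4), where 15.2% of 15694 genes rose, and none fell, where 14.4% fell. The median log2 fold change of the 9 was 0.68, against 0.00 for all genes. In NIC-Prmt6 against NIC, 3 of 9 rose (Esr1, Pgr, Prlr), where 19% of all genes rose, and 1 fell (Gata3), where 17.8% fell, with a median of 0.76 against -0.01. In NIC-Carm1 against NIC no member was called by limma, where 6.65% of genes rose and 9.36% fell, and the median was 0.29. In that comparison 1 member had an unadjusted p under 0.05, edgeR called 0, DESeq2 called 1 and voom called 4. Of all 15694 genes, voom called 4309 there, where limma called 2513. The counts of members moved with single libraries. Without NIC replicate 2 the calls in NIC-Prmt1 and NIC-Prmt6 were 1 each, without NIC-Prmt1 replicate 1 there were 2 in NIC-Prmt1, and without either NIC-Prmt6 library there was 1 in NIC-Prmt6. Without NIC-Carm1 replicate 1 there were 3 in NIC-Carm1, 5 in NIC-Prmt1 and 6 in NIC-Prmt6, where 3384, 5646 and 6632 of all genes were called.

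Between the methyltransferase groups, Pgr was higher in both NIC-Prmt1 and NIC-Prmt6 than in NIC-Carm1. In NIC-Prmt1 against NIC-Carm1, 1 of 9 members was higher (Pgr), where 14.9% of all genes were higher, and none was lower, where 11.8% were. In NIC-Prmt6 against NIC-Carm1, 2 of 9 were higher (Pgr and Greb1), where 20.9% of all genes were higher, and 1 was lower (Gata3), where 18.4% were. Without either NIC-Prmt6 library, only Pgr was called there, and without NIC-Carm1 replicate 1 Greb1 was called beside Pgr in NIC-Prmt1 against NIC-Carm1. Between NIC-Prmt1 and NIC-Prmt6 limma called no member, where 2.54% of genes were higher and 4.94% lower in NIC-Prmt1. There, 2 members had an unadjusted p under 0.05, edgeR and DESeq2 called 0 and voom called 3, and without NIC-Carm1 replicate 1 limma called 1 (Foxa1, adjusted p = 0.0284). Of all genes, limma called 1175 there, DESeq2 2133 and voom 4973, and limma called 1982 without NIC-Carm1 replicate 1. Pgr differed between NIC-Prmt1 and NIC-Prmt6 by 0.12 (95% interval -0.26 to 0.51). Comparisons that share a group share its libraries and are not independent of each other.

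**Figure D2:**
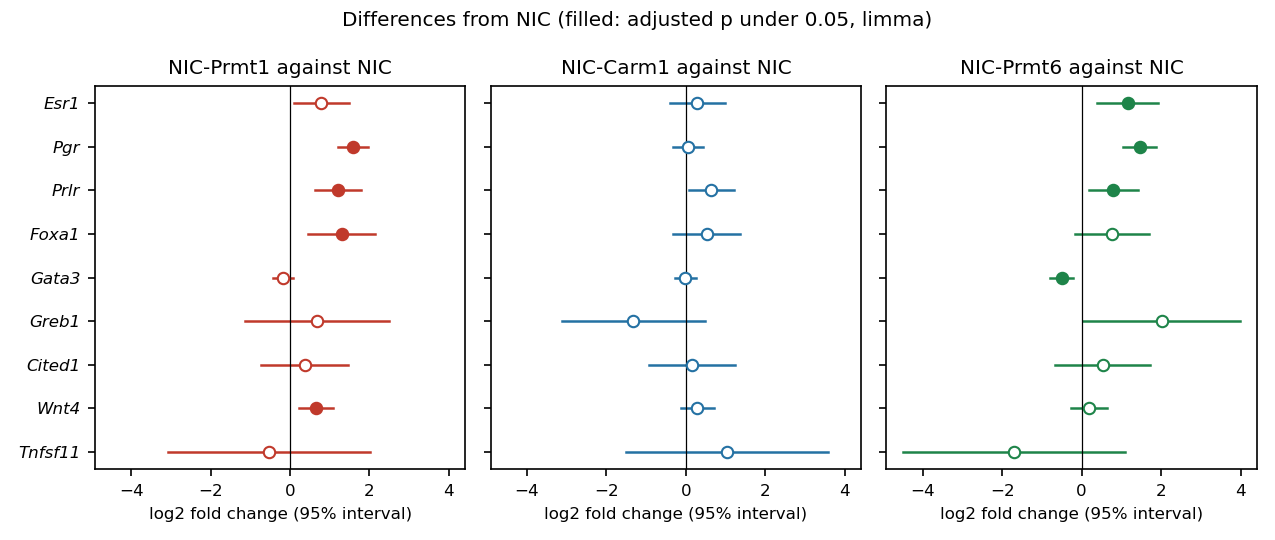
Log2 fold changes of the 9 genes against NIC (horizontal axis) with 95% intervals not adjusted for the number of genes, one panel for each methyltransferase group. Filled points passed an adjusted p of 0.05 in limma: 4 in NIC-Prmt1, none in NIC-Carm1, and 4 in NIC-Prmt6, with Gata3 the one to the left of 0.

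Per kilobase of exon (the union of all annotated exons, untranslated parts included), Gata3 had the highest mean in each group but 1. In NIC the mean normalised count per kilobase was 1396 ± 232 (SD, n = 2) for Gata3, 804.6 ± 424 for Cited1, 480.2 ± 101 for Prlr and 408.2 ± 78.2 for Foxa1. Wnt4, Pgr and Esr1 followed with 200.7 ± 30.4, 159.2 ± 0.573 and 64.1 ± 25.02, and Greb1 and Tnfsf11 were lowest, at 11.95 ± 9.78 and 7.29 ± 7.02. In NIC-Prmt6 Cited1 (1075 ± 0.704, n = 2) stood above Gata3 (978.7 ± 16.65). In NIC-Prmt1, Pgr was at 479.3 ± 70.2 (n = 3) per kilobase, Wnt4 at 318.1 ± 72.9 and Esr1 at 106.7 ± 8.30.

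Ratios between members within a library show how the receptors and their targets were balanced, as a description with no test. The ratio of Pgr to Esr1 in normalised counts was 1.21 and 2.15 in NIC, 3.09, 2.67 and 2.65 in NIC-Prmt1, 2.90, 0.981 and 0.910 in NIC-Carm1 and 2.02 and 1.95 in NIC-Prmt6. NIC-Carm1 replicates 2 and 3 thus had Esr1 within the range of the other groups but the lowest Pgr per Esr1, and NIC-Carm1 replicate 1 had low Esr1 with a ratio like that of NIC-Prmt1. The ratio of Greb1 to Esr1 was lowest in the same libraries, at 0.0123 and 0.0171, where the other 8 had 0.0431 to 0.285. The ratio of Wnt4 to Pgr was 0.551 to 0.687 in NIC, 0.274 to 0.357 in NIC-Prmt1, 0.468 to 0.9055 in NIC-Carm1 and 0.253 to 0.254 in NIC-Prmt6. Both NIC-Prmt6 libraries lay below all others.

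**Figure D3:**
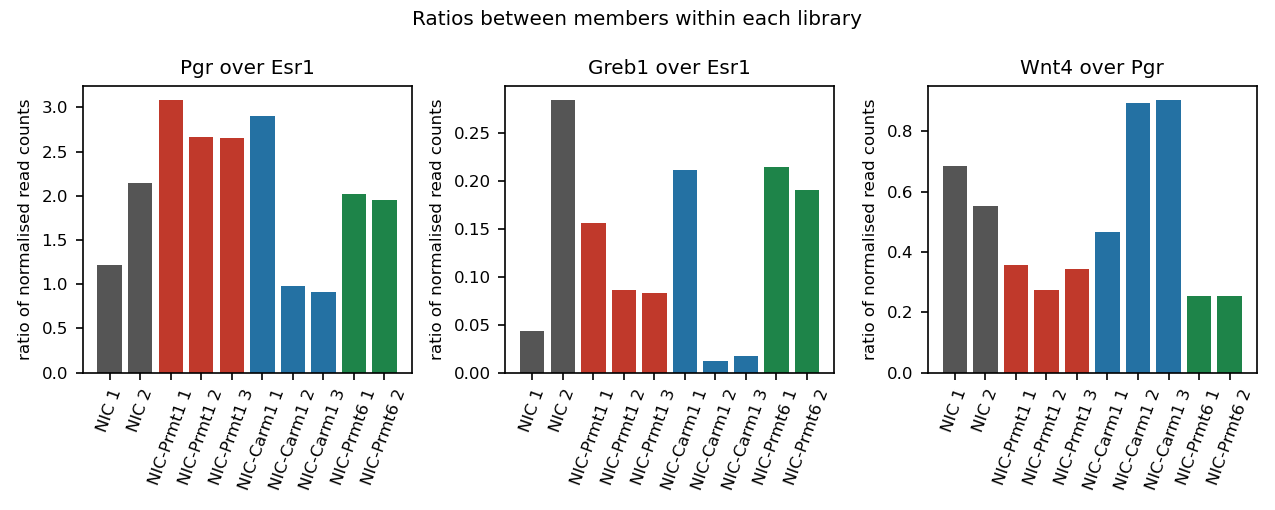
Ratios of normalised read counts within each library (bars, linear axes from 0), coloured by group. Pgr over Esr1 is below 1 only in NIC-Carm1 replicates 2 and 3 (0.981 and 0.910), and Wnt4 over Pgr is lowest in NIC-Prmt6 (0.253 and 0.254).

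Among the luminal keratins, Krt8 and Krt18 were lower in every methyltransferase library than in NIC, while Krt7 and Krt19 rose in NIC-Prmt1 (0.67 ± 0.11 and 0.60 ± 0.14, limma adjusted p = 0.0023 and 0.0127). Krt8 and Krt18 together were at 178391 and 142664 in NIC and at 66785 to 121370 in the other 8 libraries. Set against that sum, Pgr was at 7.61 and 9.56 per 1000 in NIC, 29.0 to 58.7 in NIC-Prmt1, 17.99 to 18.96 in NIC-Carm1 and 45.2 to 46.4 in NIC-Prmt6. On this scale a gene with equal counts in every library would lie above NIC, since the keratin sum was lower in the other 8. All 8 libraries of the methyltransferase groups lay above both NIC libraries for Pgr, Prlr, Foxa1, Wnt4 and Esr1. The smallest gap was for Esr1, at 6.53 in NIC-Carm1 replicate 1 against 6.27 in NIC replicate 1. Gata3 overlapped, at 27.5 and 43.5 in NIC and 37.1 to 86.3 in the others. The separation depended on the markers chosen. Set against Krt7 and Krt19, all 8 libraries lay above both NIC libraries for Prlr, but 7 did for Pgr and Foxa1, 6 for Wnt4 and 5 for Esr1. Against the sum of all 12 luminal epithelium genes, all 8 did for Pgr, Prlr, Foxa1 and Wnt4, and 7 for Esr1. These other markers were chosen after seeing the data. The share of all genes that would lie above NIC on each of these scales was not computed. The counts of members are thus a description without a background.

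Other genes of the same biology were read from lists of related genes. The counts of every list are to be set beside the shares of all genes tested. Against NIC, 15.2% rose and 14.4% fell in NIC-Prmt1, 6.65% and 9.36% in NIC-Carm1, and 19% and 17.8% in NIC-Prmt6. Of 16 other markers of hormone-sensing cells and hormone targets, 13 could be tested. In NIC-Prmt1 against NIC 6 rose and 1 fell, in NIC-Carm1 2 rose and 1 fell, and in NIC-Prmt6 6 rose and 1 fell, with median log2 fold changes of 0.73, 0.05 and 0.42, against 0.00, 0.00 and -0.01 for all genes. The 1 that fell was Xbp1, a secretory cell factor, in NIC-Prmt1 and NIC-Prmt6, and Areg in NIC-Carm1, and Xbp1 was chosen after its values were seen. On averaging the near-identical libraries, 5 rose and 1 fell in NIC-Prmt1, and 1 rose and 1 fell in NIC-Carm1. NIC-Prmt6 was then left with 1 library. Fewer of all genes were called on averaging too (given at the end), so the shares above are not the background of these counts. The calls against NIC of Fxyd2, Stc2, Areg and Prom1 held in all 22 alternatives. So did the fall of Xbp1 in NIC-Prmt1 (by 1.62 ± 0.27, limma adjusted p = 0.00289). Its fall in NIC-Prmt6 (by 1.46 ± 0.29, limma adjusted p = 0.00452) ended on averaging only. Fxyd2, a regulatory subunit of the sodium pump, rose in all 3 methyltransferase groups, by 2.71 ± 0.17, 1.58 ± 0.17 and 1.33 ± 0.19 (limma adjusted p = 8.07e-05, 0.000781 and 0.000836). Stc2, a secreted glycoprotein known as an estrogen target, rose in NIC-Prmt1 (1.57 ± 0.12, adjusted p = 0.000157) and NIC-Prmt6 (0.97 ± 0.13, adjusted p = 0.000636).

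Areg, the epidermal growth factor ligand through which estrogen drives duct growth, split the groups. It was at 4566 and 4374 in NIC, 7844, 6732 and 7789 in NIC-Prmt1, 2628, 2628 and 2797 in NIC-Carm1 and 3796 and 3945 in NIC-Prmt6. The 4 groups did not overlap. It rose by 0.73 ± 0.09 in NIC-Prmt1 (limma adjusted p = 0.000949), fell by 0.74 ± 0.09 in NIC-Carm1 (adjusted p = 0.00156) and differed by -0.21 ± 0.10 in NIC-Prmt6, which did not pass (adjusted p = 0.130). NIC-Prmt1 and NIC-Prmt6 thus had like levels of Pgr and unlike levels of Areg, which was 0.94 ± 0.09 higher in NIC-Prmt1 (adjusted p = 0.000752). Prom1, a surface marker of hormone-sensing luminal cells, rose in NIC-Prmt1 (1.37 ± 0.19, adjusted p = 0.00150) and was not called in NIC-Carm1 (0.45 ± 0.19, adjusted p = 0.143) or NIC-Prmt6 (0.42 ± 0.21, adjusted p = 0.146).

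Among 10 other nuclear and hormone receptor genes, 2 rose in NIC-Prmt1 against NIC, 2 fell in NIC-Carm1 and 6 rose in NIC-Prmt6, with medians of 0.11, 0.04 and 0.53. Ghr, the growth hormone receptor, rose in NIC-Prmt1 (0.55 ± 0.10, limma adjusted p = 0.00470) and in NIC-Prmt6 (0.93 ± 0.11, adjusted p = 0.000386). Gper1, a membrane receptor for estrogen, rose in both NIC-Prmt1 (0.88 ± 0.26, adjusted p = 0.0286) and NIC-Prmt6 (1.49 ± 0.28, adjusted p = 0.0034). The retinoic acid receptor gene Rara rose in NIC-Prmt6 by 0.63 ± 0.10 (adjusted p = 0.00127) and fell in NIC-Carm1 by 0.35 ± 0.09 (adjusted p = 0.0262), where the membrane-associated Pgrmc1 fell by 0.32 ± 0.10 (adjusted p = 0.0473). On averaging, the calls of Ghr and those of Gper1 and Rara in NIC-Prmt6 held, and the others named ended (adjusted p = 0.072 for Gper1 in NIC-Prmt1, 0.176 and 0.189 for Rara and Pgrmc1 in NIC-Carm1). The Gper1 call in NIC-Prmt1 and the Rara and Pgrmc1 calls in NIC-Carm1 were lost in 9, 9 and 13 of 22 alternatives, each among them without NIC replicate 1 or 2 and without NIC-Prmt6 replicate 1 or 2. Several of these receptors are also made by stromal cells, whose markers were highest in NIC-Prmt6, and their part was not tested.

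Of 9 other genes of prolactin signalling, 2 rose and 2 fell in NIC-Prmt1 against NIC, 1 rose and 2 fell in NIC-Carm1, and 3 rose and 3 fell in NIC-Prmt6, with medians of -0.20, 0.00 and -0.26. Socs3, a feedback inhibitor of cytokine receptors, rose by 1.74 ± 0.18 in NIC-Prmt1 (limma adjusted p = 0.000438), 0.87 ± 0.18 in NIC-Carm1 (adjusted p = 0.0122) and 1.39 ± 0.20 in NIC-Prmt6 (adjusted p = 0.000847). Cebpb, a transcription factor of alveolar development, fell by 0.92 ± 0.12, 0.69 ± 0.12 and 0.97 ± 0.13 in NIC-Prmt1, NIC-Carm1 and NIC-Prmt6 (limma adjusted p = 0.0012, 0.00651 and 0.000715). Jak2, the kinase bound to PRLR, fell by 0.91 ± 0.09 in NIC-Carm1 (adjusted p = 0.000635) and rose by 0.48 ± 0.10 in NIC-Prmt6 (adjusted p = 0.00582). Stat5a, the main transducer of prolactin signals, was not called in any comparison with NIC (adjusted p = 0.538, 0.692 and 0.871). Elf5, a prolactin-induced alveolar factor, fell by 0.78 ± 0.26 in NIC-Prmt6 (adjusted p = 0.0409). In NIC-Carm1 it had values of 11707, 6764 and 6765, and its highest library was the one with the most milk transcripts. On averaging, 4 of these calls ended: Socs3 and Cebpb in NIC-Carm1 (adjusted p = 0.105 and 0.0564) and Jak2 and Elf5 in NIC-Prmt6 (0.0784 and 0.158). Socs3 in NIC-Carm1 was also lost without NIC replicate 1 or 2, Jak2 in NIC-Prmt6 without NIC-Prmt6 replicate 2, and Elf5 without either NIC or NIC-Prmt6 library or NIC-Prmt1 replicate 2.

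A list of 10 genes held receptors, modulators, adaptors and targets of WNT4 and RANKL signals. Of these, 2 fell in NIC-Prmt1 against NIC, 1 fell in NIC-Carm1, and 1 rose and 2 fell in NIC-Prmt6. The counts were near the shares of all genes: 14.4%, 9.36% and 17.8% fell in the 3 groups, and 19% rose in NIC-Prmt6. The list medians were -0.09, -0.08 and -0.02. Traf6, an adaptor of the RANK receptor, and Id2, a target of RANKL, fell in NIC-Prmt1 (by 0.45 ± 0.10 and 0.77 ± 0.23) and NIC-Prmt6 (by 0.39 ± 0.11 and 0.84 ± 0.26), with limma adjusted p from 0.0107 to 0.0323. Axin2, a common target of Wnt signals, fell by 0.57 ± 0.16 in NIC-Carm1 (limma adjusted p = 0.0368) and rose by 0.53 ± 0.17 in NIC-Prmt6 (adjusted p = 0.0359). Of 9 coregulators, none was called in NIC-Prmt1 or NIC-Carm1 against NIC, and 2 rose in NIC-Prmt6, the acetyltransferase gene Ep300 (0.61 ± 0.17) and the coactivator gene Ncoa1 (0.47 ± 0.15), with limma adjusted p = 0.0194 and 0.0357. The medians were -0.13, 0.05 and 0.26, and 19% of all genes rose in NIC-Prmt6. Of the calls in these lists, only that of Traf6 in NIC-Prmt1 held on averaging (adjusted p = 0.04), and it was lost without NIC replicate 1. The others had adjusted p from 0.0708 to 0.182 on averaging, and each was lost also without NIC-Prmt6 replicate 1 or 2.

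**Figure D4:**
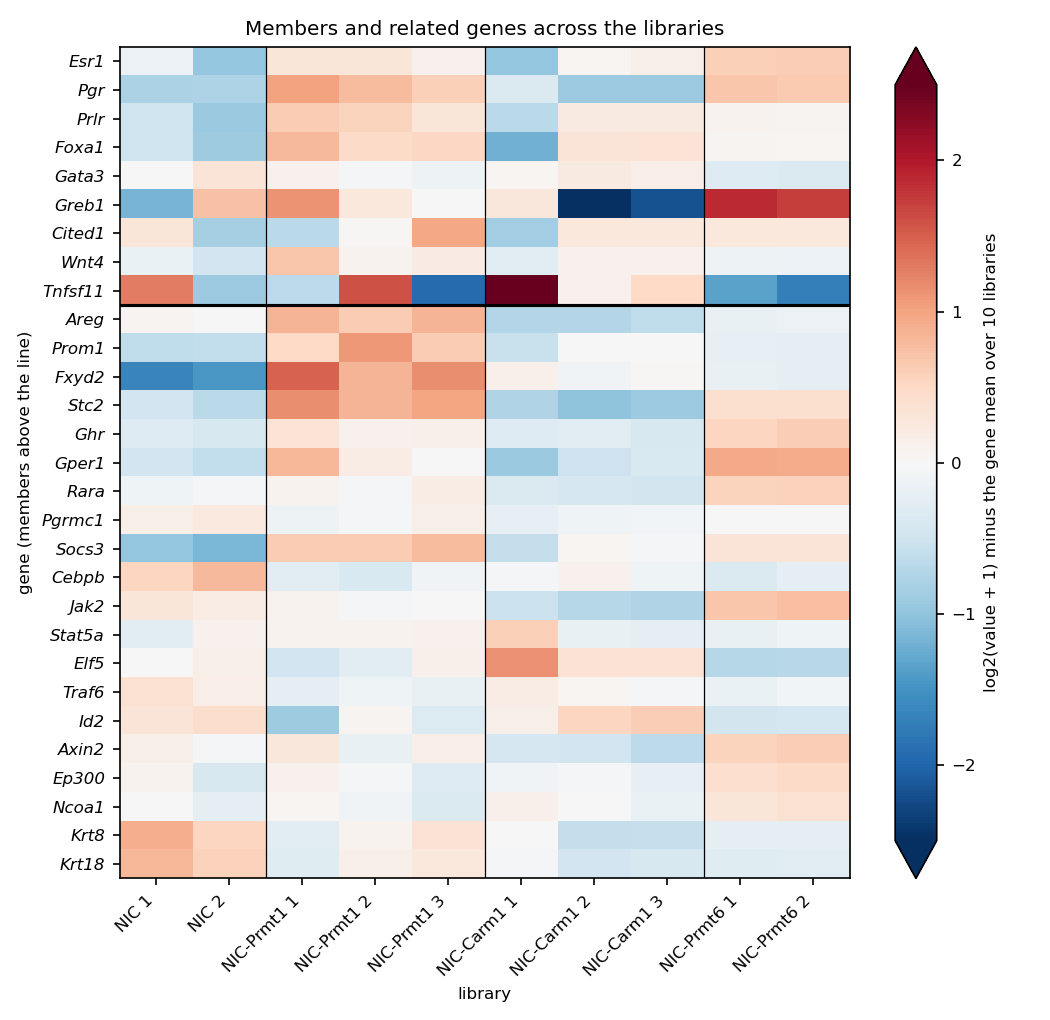
Log2(value + 1) minus the gene's mean over the 10 libraries (colour, saturated beyond the ends of the scale), with libraries on the horizontal axis. The 9 members are above the line. Below it are the related genes named in the text except Xbp1, and the luminal keratins Krt8 and Krt18. Krt7 and Krt19 are not drawn. Areg is high in NIC-Prmt1 only (6732 to 7844), and Pgr in both NIC-Prmt1 and NIC-Prmt6.

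The patterns of the members over the 10 libraries fell into few shapes. Likeness was measured by Pearson's r of log2(value + 1) over 10 libraries, which share 4 groups and 2 near-identical pairs, and is given as a description. Prlr and Foxa1 were the most alike of the members (r = 0.96), Wnt4 resembled both (r = 0.85 each), and Pgr and Greb1 had r = 0.74. Esr1 was more like Prlr and Foxa1 (r = 0.81 each) than Pgr (r = 0.60), and Gata3 ran against Esr1 and Pgr (r = -0.66 each). Among 14643 other genes, those most like Pgr were Sh3d19, Gpsm1 and Dnajb5 (r = 0.981, 0.977 and 0.970), and those most like Esr1 were Parp8, Hoxa6 and Rab31 (0.984, 0.981 and 0.971). The closest to Prlr were Tmem56, Rhbdl2 and Susd5 (0.984, 0.979 and 0.975), to Foxa1 Leprotl1, Pqlc3 and Capsl (0.985, 0.974 and 0.974), and to Wnt4 Gemin4, Mfsd2a and Kif3c (0.982, 0.972 and 0.959). Gata3 was most like Nkpd1, Inhbb and Itgb5 (0.961, 0.961 and 0.953), and Greb1 like Hlx, Mapk6 and Hsf4 (0.954, 0.948 and 0.947). The best matches of Cited1 (Pcdha10, Nuak2 and Anxa4, 0.867 to 0.857) and Tnfsf11 (Syt13, Nhlrc2 and Tbc1d4, 0.911 to 0.894) were looser.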

How the data were processed

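The submitters' processing notes name the build mm10 and the tools TopHat2 2.0.10, HTSeq 0.6.0 and DESeq 1.18.0. Not given in the sources used here: annotation, strand setting, filters. The deposited signal is the read count divided by a size factor for each library: 100% of values were whole multiples of 1 step per library (tolerance 0.01), which recovered whole reads. The main test was limma-trend (R 4.3.3, limma 3.58.1) on log2(value + 1) in a single fit of 10 libraries and 4 groups, on 15694 genes (2 or more libraries had to reach a value of 10). All 9 members passed this filter. P-values were adjusted over all 15694 genes by Benjamini-Hochberg with a threshold of 0.05. The fit was also run on simulated libraries, drawn independently with the same setting of the spread for every gene. These held no near-identical pairs and no outlying library, so that run does not cover these features of the data. Fold changes are on the log2(value + 1) scale, which understates changes of low genes. Alternatives were edgeR 4.0.16, DESeq2 1.42.0 and voom on recovered reads, other pseudocounts (0.5 and 5), filters and scalings, groups alone, a replicate block, averaging and leaving out each library. edgeR on recovered reads called 4, 0 and 3 members against NIC in NIC-Prmt1, NIC-Carm1 and NIC-Prmt6. Its counts over all genes are not given here. Positions are from GENCODE M21 (GRCm38). The members, lists and alternatives were chosen with earlier results of these data known. The named genes are all members, for each member the 3 genes most like it, and from each list of related genes the 2 with the smallest adjusted p in each comparison with NIC, with Areg, Prom1, Elf5 and Stat5a always given. One gene that this rule names is not reported here.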

Additional observations from a re-analysis of the deposited data

How the results depend on the processing

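Of 54 member and comparison pairs, 12 were called, and the 4 kept in all alternatives were those of Pgr. Of the 42 not called, 16 were called in some alternative, 14 of them with voom and 8 without NIC-Carm1 replicate 1. Among the 31 values of opposite sign to the reported one, none passed the threshold. Groups of 2 or 3 libraries and near-identical pairs are the limits here. Depth limits only Tnfsf11 and the lowest Greb1 libraries. Of the related genes called against NIC, 10 of 15 in NIC-Prmt1, 3 of 9 in NIC-Carm1 and 9 of 24 in NIC-Prmt6 kept their call on averaging, and 8, 3 and 9 kept it in all 22 alternatives, a check chosen after seeing the data. The causes of the changes below were not tested.

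For members, the count called in NIC-Prmt1 against NIC (4) was 2 with a replicate block and 1 to 5 without 1 library. The count in NIC-Carm1 against NIC (0) was 1 with DESeq2, 4 with voom and 0 to 3 without 1 library. The count in NIC-Prmt6 against NIC (4) was 1 with near-identical libraries averaged and 1 to 6 without 1 library. The count in NIC-Prmt1 against NIC-Carm1 (1) was 3 with voom and 1 to 2 without 1 library. The count in NIC-Prmt6 against NIC-Carm1 (3) was 5 with DESeq2, 6 with voom, 1 on averaging and 1 to 4 without 1 library. The count in NIC-Prmt1 against NIC-Prmt6 (0) was 3 with voom, 1 with the 2 groups alone and 0 to 1 without 1 library.

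For all genes, 4645 changed in NIC-Prmt1 against NIC, with 2775 for the groups alone, 2601 on averaging and 2271 to 5646 without 1 library. In NIC-Carm1 against NIC 2513 changed, with 4309 by voom, 1441 for the groups alone, 1667 with the replicate block, 340 on averaging and 708 to 3384 without 1 library. In NIC-Prmt6 against NIC 5778 changed, with 1664 on averaging and 2656 to 6632 without 1 library. In NIC-Prmt1 against NIC-Carm1 4199 changed, with 1355 on averaging and 2638 to 4692 without 1 library. In NIC-Prmt6 against NIC-Carm1 6157 changed, with 10902 by voom, 1262 on averaging and 2569 to 6799 without 1 library. In NIC-Prmt1 against NIC-Prmt6 1175 changed, with 2133 by DESeq2, 4973 by voom, 571 with the replicate block, 21 on averaging and 47 to 2241 without 1 library.

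No pairing of samples by replicate number was shown: deviations of same-numbered libraries from their group means had correlations between -0.13 and 0.10. This check cannot exclude pairing. The NIC-Prmt6 libraries are near-identical, so their deviations leave little to correlate, and those of NIC-Carm1 are set mostly by its outlying library. The block ended the calls of Foxa1 and Wnt4 in NIC-Prmt1 (adjusted p = 0.0770 and 0.0605) and of Prlr in NIC-Prmt6 (0.0804).

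Log2 fold changes of opposite sign, none called, were the following. With the replicate block, Tnfsf11 in NIC-Prmt1 against NIC was 0.06, and Gata3 and Cited1 in NIC-Carm1 against NIC were 0.01 and -0.16. With upper-quartile rescaling, Gata3 in NIC-Carm1 against NIC was 0.04, and on averaging Cited1 there was -0.04. With voom, Pgr and Gata3 in NIC-Carm1 against NIC were -0.10 and 0.03, Prlr and Foxa1 in NIC-Prmt6 against NIC-Carm1 were -0.11 and -0.21, and Cited1 in NIC-Prmt1 against NIC-Prmt6 was 0.16 (0 with edgeR). Leaving out 1 library at a time gave ranges that cross or reach 0. In NIC-Prmt1 against NIC these were -0.26 to 1.62 for Greb1, -0.20 to 0.93 for Cited1 and -1.62 to 0.58 for Tnfsf11. In NIC-Carm1 against NIC they were -0.12 to 0.70 for Esr1, -0.13 to 0.15 for Pgr, -0.18 to 0.16 for Gata3, -0.41 to 0.72 for Cited1 and -0.06 to 2.14 for Tnfsf11. In NIC-Prmt6 against NIC the range was -0.04 to 1.09 for Cited1, and in NIC-Prmt1 against NIC-Carm1 -0.21 to 0.60 for Cited1. In NIC-Prmt6 against NIC-Carm1 they were -0.14 to 0.31 for Prlr, -0.26 to 0.50 for Foxa1 and 0.00 to 0.56 for Cited1, and in NIC-Prmt1 against NIC-Prmt6 -0.58 to 0.23 for Cited1. A group left with 1 library was assumed to vary like the others.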
